A study of Homo sapiens with 8 samples.

Results

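The 11q22 window chr11:100235000-102300000 (build hg19) holds 6 genes described here: ARHGAP42, PGR, TRPC6, YAP1, BIRC3 and BIRC2. Accessible regions of the window were obtained by merging the peaks of 8 ATAC-seq lists wherever they shared at least 1 bp. They numbered 98 of the 80588 regions on chromosomes 1 to 22 and X. The window was chosen from the calls of the same 8 lists, because KOSC-2 lists had many peaks over ARHGAP42 where HSC-3 lists had none. Differences between the lines are therefore given as a description, with no test. Dose did not enter the choice.

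ATAC-seq reads open chromatin through the insertion of adapters by the Tn5 transposase. The 4 groups were the oral squamous carcinoma cell lines KOSC-2, labelled radiosensitive, and HSC-3, labelled radioresistant, each at 0 or 8 Gy and each frozen 24 hours later. Every group had 2 libraries, and the labels do not say whether they are separate cultures. The spread behind each p-value is that between libraries, which may be technical. A single line stands for each class of radiosensitivity. No other agent or genetic change is given for either line.

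The genes have unlike roles. ARHGAP42 encodes a GTPase-activating protein, PGR the progesterone receptor, a steroid hormone-activated transcription factor, and TRPC6 a cation channel that admits calcium. YAP1 encodes the transcriptional coactivator at the end of the Hippo pathway, which binds TEAD factors and drives growth genes in epithelia. BIRC2 and BIRC3 are neighbouring paralogs that encode cellular inhibitors of apoptosis, ubiquitin ligases of TNF receptor signalling, and BIRC3 is itself a known NF-κB target. The segment around YAP1, BIRC3 and BIRC2 is known as a recurrent site of gene amplification in several carcinomas.

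Gene bounds were known here only to 0.01 Mb, so a region was assigned to a gene when it lay within 5000 bp of the rounded bounds, and to a gene's start by the same margin. ARHGAP42 runs from 100.56 to 100.86 Mb, PGR from 100.9 to 101 Mb, TRPC6 from 101.32 to 101.45 Mb, YAP1 from 101.98 to 102.1 Mb, BIRC3 from 102.19 to 102.21 Mb and BIRC2 from 102.22 to 102.25 Mb. PGR and TRPC6 lie on the minus strand and start at their upper bound. Whether a region is exonic, intronic or in a UTR was not determined. In the RefSeq gene order CNTN5 precedes ARHGAP42, ANGPTL5, CEP126 and CFAP300 are among the genes between TRPC6 and YAP1, and TMEM123 follows BIRC2.

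The sequences before 4 of these gene starts are shown because the calls at the starts differ most among them: ARHGAP42 was called in 1 line, TRPC6 in 1 library, and YAP1 and BIRC3 in every library. Each is the 250 bases upstream of the start in RefSeq (build GRCh38.p14, not the build of the peaks), 5′ to 3′ on the gene's strand, with CpG dinucleotides in capitals. They lie at chr11:100687038-100687287 (plus strand), chr11:101584008-101584257 (minus), chr11:102110197-102110446 (plus) and chr11:102317234-102317483 (plus). All 6 genes matched the RefSeq promoter table, PGR with 3 entries and BIRC2 with 2. Only 1 entry per gene is described here.
ARHGAP42: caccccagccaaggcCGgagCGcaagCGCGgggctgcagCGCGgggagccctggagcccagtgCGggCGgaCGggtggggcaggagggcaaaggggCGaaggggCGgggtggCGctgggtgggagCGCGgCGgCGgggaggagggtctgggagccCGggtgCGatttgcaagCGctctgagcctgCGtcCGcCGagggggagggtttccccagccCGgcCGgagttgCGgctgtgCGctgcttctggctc
TRPC6: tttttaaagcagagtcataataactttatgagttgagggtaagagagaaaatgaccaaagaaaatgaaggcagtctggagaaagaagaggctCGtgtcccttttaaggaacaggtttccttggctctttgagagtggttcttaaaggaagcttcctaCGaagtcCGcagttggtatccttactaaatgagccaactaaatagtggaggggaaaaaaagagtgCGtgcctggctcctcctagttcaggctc
YAP1: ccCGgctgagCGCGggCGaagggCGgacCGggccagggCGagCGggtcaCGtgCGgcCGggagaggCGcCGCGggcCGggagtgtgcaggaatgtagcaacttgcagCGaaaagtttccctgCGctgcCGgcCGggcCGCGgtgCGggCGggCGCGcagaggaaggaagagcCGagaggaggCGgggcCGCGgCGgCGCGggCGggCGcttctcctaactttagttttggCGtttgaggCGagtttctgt
BIRC3: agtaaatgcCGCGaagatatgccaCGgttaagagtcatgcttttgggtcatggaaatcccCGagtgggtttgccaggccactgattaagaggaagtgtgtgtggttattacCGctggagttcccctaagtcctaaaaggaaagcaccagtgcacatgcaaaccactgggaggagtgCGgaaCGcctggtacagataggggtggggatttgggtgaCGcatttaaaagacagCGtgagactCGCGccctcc

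The ARHGAP42 stretch held 26 CpG dinucleotides, YAP1 36 and BIRC2 33, against 11 for BIRC3, 5 for PGR and 4 for TRPC6. The median of 35116 promoters in the table was 11. The sequence before ARHGAP42 was thus above that median, as were those before YAP1 and BIRC2, and its start was called in no HSC-3 library. A TEAD motif (GGAATG, either strand) occurred 1 time before YAP1 and in none of the other 5 stretches, and 11.9% of promoters hold one in the same 250 bases. The κB motif occurred at 2 positions before BIRC3 and 1 before PGR, where it read on both strands, and 9.96% of promoters hold one. An AP-1 motif (TGANTCA, its own reverse complement) and a TATA box (TATAAA, either strand) were in none of the 6, against 6.57% and 10.7% of promoters. A CCAAT box (CCAAT, either strand) occurred 2 times before PGR alone, against 32.008% of promoters. These are matches of letters in these windows only.

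All 8 libraries had at least 14 peaks in the window. KOSC-2 libraries had 55 and 63 peaks at 0 Gy and 73 and 56 at 8 Gy. HSC-3 libraries had 28 and 14 at 0 Gy and 14 and 26 at 8 Gy. The groups of each line did not overlap, at 61.75 ± 8.302 peaks in KOSC-2 and 20.5 ± 7.55 in HSC-3 (SD, n = 4 each). The share of a library's peaks that fell in the window was 0.132 to 0.144% in KOSC-2 and 0.0596 to 0.0668% in HSC-3. The 2 HSC-3 libraries with 14 peaks, 0 Gy replicate 2 and 8 Gy replicate 1, have the shortest lists of the series (23490 and 22504 peaks against 38234 to 51693 in the other 6).

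**Figure D1:**
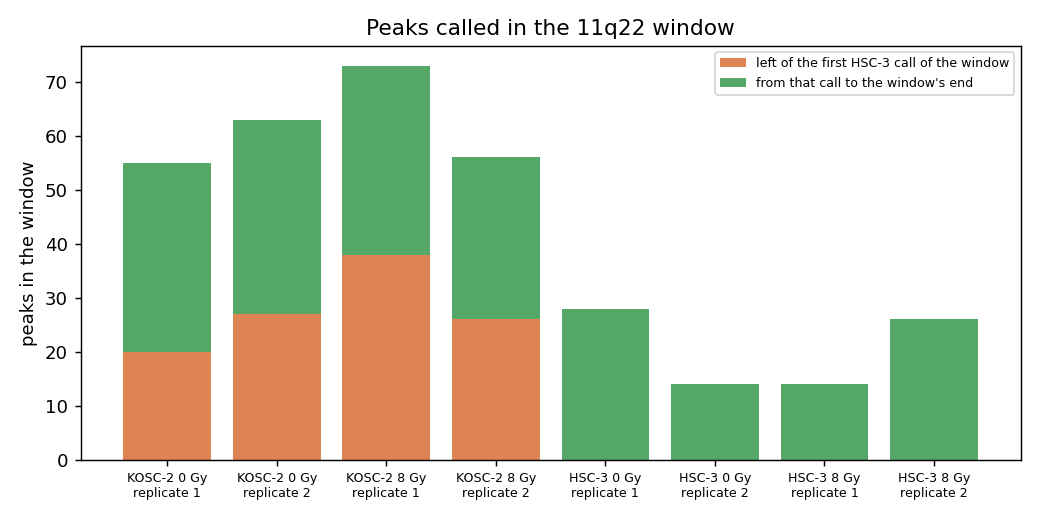
Peaks in the 11q22 window for each of the 8 libraries (y axis, number of peaks), divided at the first HSC-3 call of the window. By this choice of point the 4 HSC-3 bars hold only peaks to its right, and each KOSC-2 bar holds both kinds.

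Of the 98 regions, 97 were called in at least 1 KOSC-2 library and 28 in at least 1 HSC-3 library. The 1 region without a KOSC-2 call, chr11:102262363-102262662, lay beyond BIRC2 and was called in 1 HSC-3 library at a fold enrichment of 3.57. KOSC-2-only regions, called in all 4 KOSC-2 and 0 HSC-3 libraries, numbered 14 of 98, where 2.07% of all regions meet that rule. HSC-3-only regions numbered 0 of 98, against 0.3% of all regions. Regions called in all 8 libraries numbered 9 of 98, against 15.9%. Since calls by line chose the window, nothing is read from any of these shares. Without the KOSC-2 0 Gy library replicate 1, whose median fold on chromosome 11 (5.43) is the lowest of the series, KOSC-2-only regions numbered 25. The rule is then easier to meet everywhere, so 25 does not compare with the 2.07%, and the share of all regions under the easier rule is not given here.

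The window was divided at its first HSC-3 call, so the part to the left has no HSC-3 call by construction. That part held 48 regions, to which KOSC-2 contributed 107 calls. From there to its end the window held 50 regions with 133 KOSC-2 and 75 HSC-3 calls. This is a ratio of 0.564 HSC-3 calls to each KOSC-2 call, with the part lacking HSC-3 calls left out. The ratio was 0.3125 over the undivided window and 0.732 over the whole genome.

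**Figure D2:**
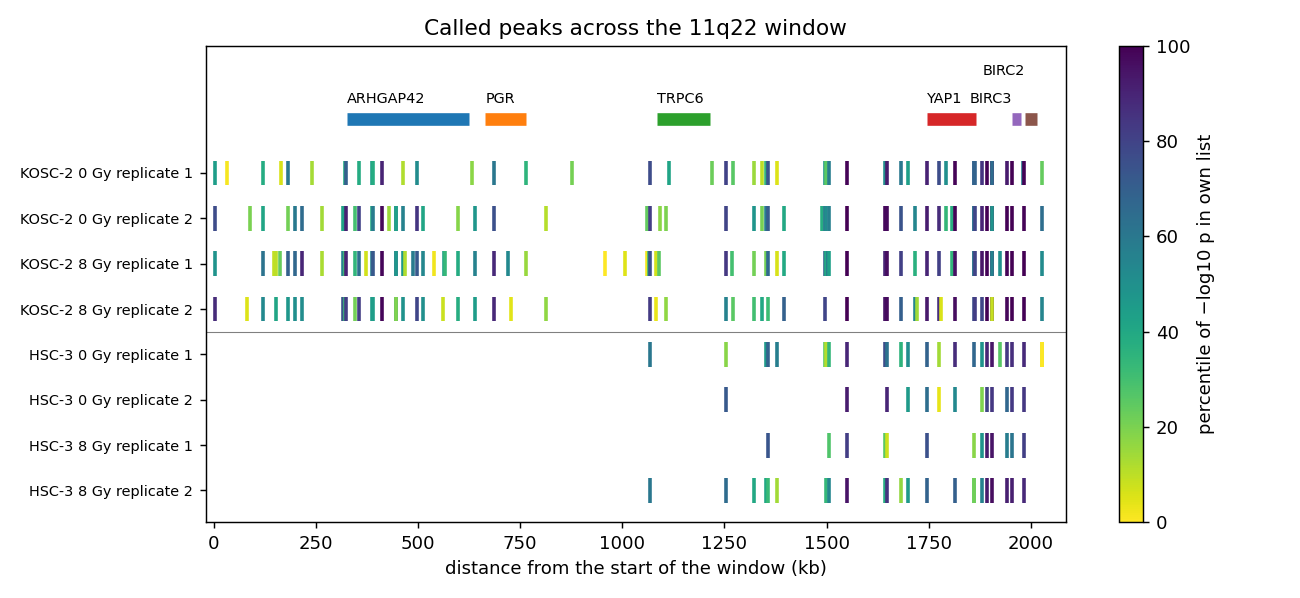
Called peaks in each library (rows) by distance from the start of the window in kb (x axis), with colour giving the percentile of the peak within its own list and bars marking the 6 genes. HSC-3 rows are empty over ARHGAP42, PGR and TRPC6, apart from 1 region just left of TRPC6 called in 2 libraries.

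The HSC-3 calls resumed just before TRPC6. On the left, outside the window, chr11:100199322-100200561 was called in all 8 libraries. Its fold enrichment was 10.8 to 11.9 in KOSC-2 and 5.81 to 10.9 in HSC-3, with 50 to 77 and 9 to 26 reads at the summit. From there no HSC-3 library had a peak for 1101 kb, to chr11:101301633-101302237, left of TRPC6. The long HSC-3 lists (0 Gy replicate 1 and 8 Gy replicate 2) both called this region, with 21 and 20 reads at the summit, and KOSC-2 called it with 41 to 51 reads. In the short lists the first call came further right, at position 101489349 in 0 Gy replicate 2 and 101592049 in 8 Gy replicate 1. The interval each HSC-3 library lacked was thus 1101 kb in both long lists, 1288 kb and 1391 kb. All 4 ended on the left at the same region. A further HSC-3-free interval of 2.36 Mb lay to its left, with 41 KOSC-2 calls.

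Intervals of this kind were ranked over the whole genome by their KOSC-2 calls, which describes how the 11q22 interval compares and is no test. Among 15702 intervals between neighbouring HSC-3-called regions with at least 1 KOSC-2-called region, it ranked 2 by calls (109 in 50 regions, 2 of these regions outside the window) and 1 by regions called in all 4 KOSC-2 libraries (12). The median interval held 2 calls. The others among the first 5 were chr11:89956802-92180265 with 122 calls, chr4:27002838-30210336 with 88, chr13:81894027-86160445 with 70 and chr16:58768543-64998241 with 66. These are 2223 to 6230 kb long. Among the first 5, calls were thus densest at 11q22, with 9.90 per 100 kb against 1.06 to 5.49. Density was not ranked over the whole genome. In the reverse case, intervals without a KOSC-2 call held at most 47 HSC-3 calls, but KOSC-2 made 174543 calls in all and HSC-3 127761. With lists of equal length (89306 and 88392 calls), the 11q22 interval held 45 KOSC-2 calls and ranked 1, and the reverse case reached 35. With peaks above the 50th percentile, it held 44 and ranked 2, and the reverse case reached 30. Its rank was 4 where an HSC-3 region had to be called in at least 2 libraries to end an interval.

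**Figure D3:**
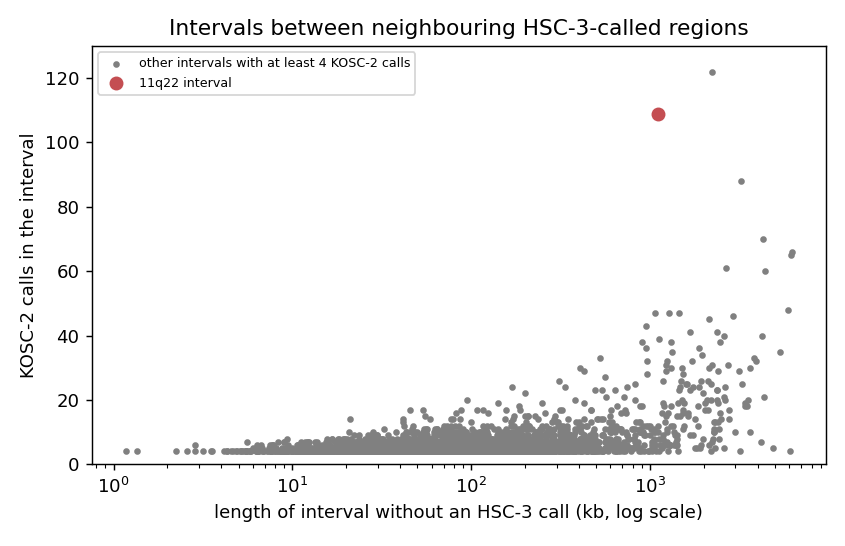
Each point is an interval between neighbouring HSC-3-called regions, by its length in kb (x axis, log scale) and the KOSC-2 calls in it (y axis), shown from 4 calls upward. The 11q22 interval (red) has 109 calls in 1101 kb, and the only point above it has 122 calls in 2223 kb.

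ARHGAP42, at 0.3 Mb the longest of the 6 genes, had 21 regions. Per 100 kb between the rounded bounds it had 18.3 KOSC-2 calls. The other values were 23.3 for YAP1, 20 for BIRC3, 16.7 for BIRC2, 8 for PGR and 6.15 for TRPC6. Calls in the margin beyond the bounds were counted, but the length leaves the margin out, which raises the values of short genes most. All BIRC3 and BIRC2 regions lay in that margin, so the genes are not ranked by these values. The ARHGAP42 regions had 55 calls from KOSC-2, 0 from HSC-3, and included 8 of the 14 KOSC-2-only regions. KOSC-2 libraries called 8, 14, 19 and 14 of the 21, in the order 0 Gy replicates 1 and 2 and 8 Gy replicates 1 and 2. At its start, chr11:100557758-100558870 had 49, 93, 102 and 73 reads at the summit in that order, at fold enrichments of 5.70, 7.38, 6.97 and 6.73. Its summits lay within 57 bp of one another. The replicate of lowest fold, 0 Gy replicate 1, also has the deepest background of the series.

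The strongest region of the gene, chr11:100646788-100648259 lay inside it, away from the start. It had 66, 127, 137 and 133 reads at the summit and fold enrichments of 8.78, 9.50, 9.60 and 9.68, with all 4 summits within 10 bp. Its mean percentile by −log10 p within the lists was 96.4, where 100 is the strongest peak of a list. Here and below this mean covers only the libraries that called the region, and strongest means highest by it. A missing call thus does not lower it. The other 6 KOSC-2-only regions of ARHGAP42 ranged in mean percentile from 35.7 (chr11:100555452-100555819) to 72.1 (chr11:100731898-100732489). Between them lay chr11:100590052-100590957 (66.2), chr11:100622957-100624317 (53.5), chr11:100621042-100621421 (46.5) and chr11:100698663-100699418 (40.9). Percentiles within the gene thus spread widely. A single library called 8 of its 21 regions, and over all regions of the genome 31.9% were called in a single library.

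Upstream of ARHGAP42 the window held 15 regions, 3 of them KOSC-2-only. These were chr11:100238569-100239109 (mean percentile 64.6), chr11:100355701-100356104 (48.6) and chr11:100417393-100417901 (49.5). The strongest upstream region, chr11:100449653-100450195, was called in 3 KOSC-2 libraries and missed in 0 Gy replicate 1. Its mean percentile of 68.5 covers those 3 libraries only, so it does not compare directly with the means over 4. Between ARHGAP42 and PGR, 2 regions had 4 KOSC-2 calls, the stronger at chr11:100874162-100874562 (49.4).

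PGR had 4 regions, called 8 times in KOSC-2 and 0 times in HSC-3. The one at its start, chr11:100998032-100999410, was called in KOSC-2 replicate 1 of each dose, with 26 and 20 reads at fold enrichments of 4.73 and 4.48, and in neither replicate 2. The KOSC-2-only region chr11:100919782-100920390 lay in the distal part of the gene, away from the start. It had 24, 40, 59 and 55 reads at the summit and fold enrichments of 8.49, 9.95, 12.1 and 13.2. Every KOSC-2 library thus had an open region within PGR, and the region assigned to the start was at most weakly called.

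TRPC6 had 6 regions, called 8 times in KOSC-2 and 0 times in HSC-3, and none was called in all 4 KOSC-2 libraries. At its start, chr11:101454119-101454464 was called in the KOSC-2 0 Gy library replicate 1 alone, with 18 reads at a fold enrichment of 4.97. The strongest of the 6, chr11:101349781-101350188, was also called in that library alone (percentile 41.5). Of the 6 genes, TRPC6 was the only one with no region called in all libraries of either line.

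**Figure D4:**
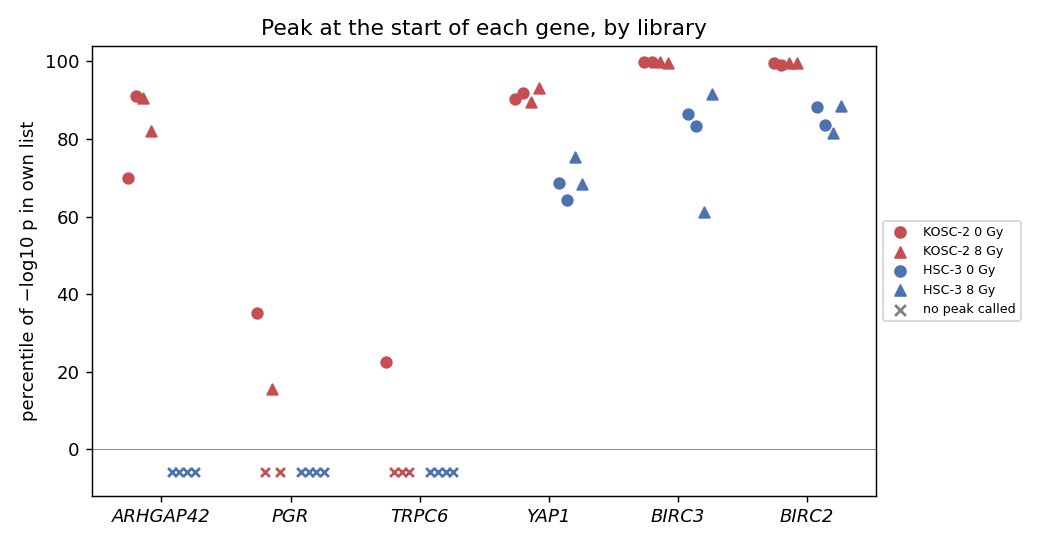
Percentile of the peak assigned to the start of each gene within its own list (y axis). Red is KOSC-2, blue HSC-3, circles 0 Gy, triangles 8 Gy and crosses no call. HSC-3 has crosses at ARHGAP42, PGR and TRPC6 and called the starts of YAP1, BIRC3 and BIRC2 in 4 of 4 libraries, at percentiles of 61.3 to 91.6.

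Between TRPC6 and YAP1 both lines had calls. The 22 regions there had 59 KOSC-2 and 33 HSC-3 calls, 13 had at least 1 HSC-3 call, and 2 were called in all 8 libraries, chr11:101785326-101786295 (mean percentile 94.6) and chr11:101881558-101882250 (78.7). The HSC-3 calls came mostly from the long lists, 12 each, against 4 and 5 in the short ones. In chr11:101935064-101935449 the balance was turned, with 3 HSC-3 calls and 1 KOSC-2 call.

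YAP1 had 10 regions with 28 KOSC-2 and 13 HSC-3 calls. Its start, in the broad region chr11:101980555-101983052, was called in all 8 libraries. The summit held 95, 116, 122 and 116 reads in KOSC-2 and 44, 25, 30 and 40 in HSC-3, at fold enrichments of 5.46 to 6.65 and 5.94 to 7.52. Fold enrichment is relative to the local background of one library, so these values do not compare accessibility between libraries. The summits of this region spread over 1232 bp, against 16 to 236 bp in the other 8 regions called in all libraries.

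Inside YAP1, chr11:102048664-102049690 was the strongest region over the libraries that called it (mean percentile 85.8, against 80.2 for the start region over all 8). It was called in all 4 KOSC-2 libraries with 89 to 119 reads and in 3 HSC-3 libraries with 13 to 40 reads. HSC-3 at 8 Gy, replicate 1, lacked it. The KOSC-2-only region chr11:102097350-102097853 near the end of YAP1 had 50, 65, 69 and 64 reads (mean percentile 77.6). Outside the gene, between YAP1 and BIRC3, the KOSC-2-only region chr11:102140616-102141129 (44.7) lay beside a region called in all 8.

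Between YAP1 and BIRC3 stood 4 of the 9 regions called in all libraries, among 6. The strongest, chr11:102138769-102140177, had 139, 175, 180 and 170 reads in KOSC-2 and 63, 29, 46 and 69 in HSC-3, with a mean percentile of 96.1. The others were chr11:102126573-102127536 (94.3), chr11:102176641-102177897 (86.1) and chr11:102115336-102116155 (65.2).

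BIRC3 had 1 region, at its start, chr11:102187786-102188661, called in all 8 libraries. It held 129, 159, 161 and 135 reads in KOSC-2 and 41, 25, 21 and 47 in HSC-3. The start of BIRC2, chr11:102217268-102218679, was also called in all 8, with 132, 149, 176 and 155 reads in KOSC-2 and 47, 27, 30 and 43 in HSC-3. Its fold enrichments, 9.10 to 10.4 in KOSC-2 and 8.81 to 11.3 in HSC-3, overlapped. The reads at the summit did not, but they are not scaled for the depth of each library, so they do not separate the lines in accessibility. A second BIRC2 region, chr11:102216610-102217024, was called in the KOSC-2 0 Gy library replicate 1 alone. In KOSC-2 both starts stood at percentiles of 99.1 to 99.9.

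Over the 9 regions called in all 8 libraries, the mean percentile within the lists was 96.7 ± 1.08 in KOSC-2 and 76.2 ± 7.78 in HSC-3 (SD, n = 4 each). Over all 12827 such regions of the genome it was 77.9 ± 2.45 and 70.8 ± 8.78 (SD, n = 4 each), so a gap between the lines, smaller than in the window, exists there too, and the libraries of the lines overlap. The window was chosen on calls by line, and this difference was not tested. Percentiles come from lists of different lengths, so they show rank and not a change in accessibility.

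The read density around the summits also differed between the lines. Each peak's fold and p together give the background it was tested against, which above the genome-wide level is the number of reads in the surrounding 10 kb, the peak's own reads included. It was divided by the genome-wide level of the library. At the 9 window regions called in all 8 libraries, the KOSC-2 mean of this relative background was 2.69 to 3.98 times the HSC-3 mean, with a median log2 ratio of 1.61. The median over all 12827 regions called in all libraries was 0.101, with quartiles of -0.236 and 0.411. Only 46 of these 12827 regions (0.359%) reached the lowest of the 9 window values, and 33 of the 46 lay on chromosome 11. Both counts include the 9 window regions themselves.

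The median over the 9 window regions was also set against the median over all 12827 regions of the same library. It was 1.61, 3.19, 2.49 and 2.81 times that median in KOSC-2, and 0.901, 0.891, 0.712 and 0.950 times in HSC-3. Around the BIRC2 start, for example, the 10 kb held 396, 516, 592 and 465 reads in KOSC-2 and 110, 69, 84 and 96 in HSC-3. In both lines these counts are above the library's genome-wide level of 24.3 to 64.8 reads in KOSC-2 and 20.2 to 42.6 in HSC-3, and the excess was larger in KOSC-2. The 14 KOSC-2-only regions of the window also stood on a raised background, 1.53, 2.32, 2.09 and 2.51 times the median of all 1671 KOSC-2-only regions. Their median reads at the summit were higher too, 28, 42.5, 45 and 42 against 22, 24, 28 and 21. The background includes those reads, and their part in its rise was not tested.

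The rise had an edge just right of the window. The all-library region chr11:100199322-100200561 on the left had a log2 ratio of 1.68, and chr11:102322437-102324263, just beyond the window, one of 2.01. At the next such region, chr11:102469962-102471056, the log2 ratio was 0.13, and the following 9 up to 106270299 lay between -0.25 and 0.29. On the other side, regions from 94706141 to 96123653 ranged from -0.25 to 1.61. Raised values were not limited to the window, as the plot along the chromosome shows many to its left. This edge was noticed after the values were seen. Copy number was not measured, and the part of the raised background in the calls of either line was not tested.

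**Figure D5:**
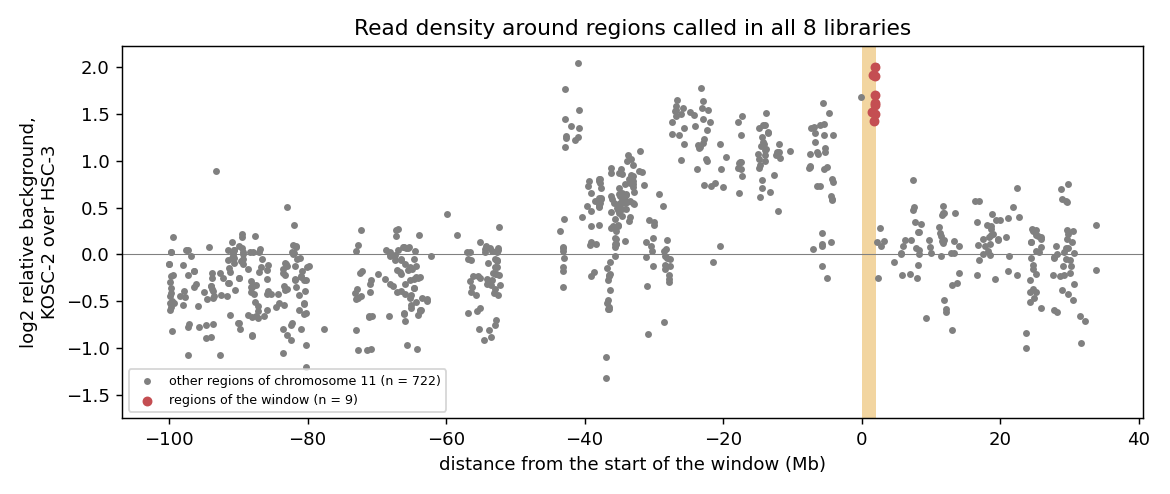
Log2 ratio of the relative background, KOSC-2 over HSC-3 (y axis), at each chromosome 11 region called in all 8 libraries, by distance from the start of the window in Mb (x axis). The 9 window regions (red, shaded band) lie between 1.43 and 1.99, and the values fall to about 0.13 at the second region beyond the band.

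Gained and lost regions were counted by dose. In KOSC-2, 2 of 98 regions were called in both 8 Gy libraries and neither 0 Gy library, where 3.51% of all regions are gained in this way, and 1 was lost, against 0.87%. In HSC-3, 0 of 98 were gained, against 0.68%, and 1 was lost, against 0.957%. These shares are near those of the whole genome, so the counts are no result about the window. They also rest on single libraries: without replicate 2 of KOSC-2 at 8 Gy, 19 regions were gained, and without replicate 2 at 0 Gy, 13 were gained and 11 lost. All other libraries that move a count are named with the alternatives. The gained KOSC-2 regions were chr11:100385772-100386326 upstream of ARHGAP42 (20 and 22 reads) and chr11:101316575-101317324 beside TRPC6 (21 and 12 reads). The lost ones both lay in YAP1, chr11:102027945-102028323 in KOSC-2 (22 and 21 reads at 0 Gy) and chr11:102008958-102010307 in HSC-3 (10 and 7 reads at 0 Gy). All 4 were weak calls, with mean percentiles of 5.12 to 42.0 in the libraries of the line concerned.

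No measure of the window passed a test by dose. The share of a library's peaks in the window was 0.141% at 0 Gy and 0.137% at 8 Gy in KOSC-2, and 0.0632% and 0.0613% in HSC-3. The mean difference of -0.00324 percentage points gave p = 0.333 (exact two-sided permutation test within lines, 36 assignments, adjusted p = 1 over 3 measures). The bases covered by peaks averaged 33.6 kb at 0 Gy and 38.5 kb at 8 Gy in KOSC-2, and 10.8 and 9.70 kb in HSC-3 (exact permutation p = 0.667, adjusted p = 1). The mean fold percentile of the 9 regions called in all libraries was 81.3 at 0 Gy and 78.5 at 8 Gy in KOSC-2. In HSC-3 it was 75.6 and 78.8. The differences of the lines had opposite signs, and their mean was 0.203 (exact permutation p = 1, adjusted p = 1). The smallest p this design allows is 0.0556, so no dose difference could have passed 0.05, and these p-values do not show that the doses are alike. In KOSC-2 the starts of YAP1, BIRC3, BIRC2 and ARHGAP42 were called in 2 of 2 libraries at either dose, that of PGR in 1 of 2 at either dose, and that of TRPC6 in 1 of 2 at 0 Gy and 0 of 2 at 8 Gy.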

How the data were processed

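ATAC-seq peaks of 8 libraries were analysed, 2 for each line and dose, grouped by the labels. The authors deposited 1 peak list per library on hg19. Per the submitters' processing notes, FastQC 0.11.7, Bowtie2 2.3.4.2, SAMtools 1.9, deepTools and MACS2 2.2.6 were used. How duplicates and blacklisted regions were handled, whether reads were shifted for Tn5, and the MACS2 settings: not given in the sources used here. Duplicates left in would raise summit reads.

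For each peak the authors deposited a score (10 times the −log10 q), a ratio (fold enrichment over the library's own background), the −log10 p-value, the −log10 q-value and the summit offset. The lowest −log10 q was 2.02. Fold and p were ranked within a list only. Reads at the summit and percentiles are set side by side between lists as a description, and background was compared between lists after division by each library's genome-wide level. Reads at the summit and background were recovered from fold and p, the pileup being a whole number from 2 to 499 that gave the deposited p within 0.0001 for 100% of peaks used. Genome-wide depth was 20.2 to 64.8 reads per 10 kb, with 300 bp fragments. The smallest pileup called on chromosome 11 was 6 to 9 reads, so weaker open regions were not detectable.

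Dose was tested by exact permutation within lines with Benjamini-Hochberg adjustment over 3 measures. The members, the window and the lists were chosen with earlier results of these data known. The regions named are the strongest of each gene and gap, KOSC-2-only and HSC-3-only ones, those called in all 8, those bounding the HSC-3-free interval, and gained or lost ones. For likeness, the 5 HSC-3-free intervals with most KOSC-2 calls are named. The local background was added after the data were seen. Alternatives tried were equal list length (22504 peaks), a −log10 q minimum of 5, peaks above the 50th percentile, 50% coverage of a region, 3 of 4 libraries, leaving out single libraries, and a replicate block. Genes other than the members, cell type markers and peak sequences need hg19 positions or sequence and are not analysed here. The work used scipy 1.17.1, numpy 2.4.6, matplotlib 3.10.9 and pandas 2.3.3 under Python 3.11.15, and functions were tested on simulated data with planted classes.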

Additional observations from a re-analysis of the deposited data

Results flagged for a closer look

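Of 8 sets of 4 library values for the window, 1 had a value far from the rest. Chance flags about 1 in 20 for each set taken singly, so 1 flag among 8 sets is not unusual. The mean fold percentile of the 9 regions called in all libraries was 82.8 in replicate 2 of HSC-3 at 8 Gy, and the other HSC-3 libraries had 74.8 to 75.8.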

How the results depend on the processing

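By KOSC-2 calls the HSC-3-free interval ranked 1 to 4 over the alternatives, all of these ranks computed after seeing the data, and 2 with each library left out. It kept its length of 1101 kb within the spread of the single HSC-3 libraries under all alternatives but one. With at least 50% of a region covered it was 3464 kb, because the region on its left was then no longer counted as called in HSC-3. With lists of equal length, KOSC-2-only regions numbered 9, KOSC-2 calls in the interval 45, and gained and lost regions 1 and 2 in KOSC-2, with 1 gained in HSC-3. With peaks above the 50th percentile these were 8 KOSC-2-only regions, 44 calls and 2 lost in KOSC-2. Regions lost in HSC-3 numbered 0 there, at a −log10 q of at least 5 and at 50% coverage. With 3 of 4 libraries required, an easier rule, KOSC-2-only regions numbered 25. An alternative added after seeing the data left out the 3 least enriched libraries. There they numbered 25, HSC-3-only regions 1, lost KOSC-2 regions 6, and gained and lost HSC-3 regions 2 and 5.

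Leaving out each library in turn gave 14 to 25 KOSC-2-only regions (25 without replicate 1 of KOSC-2 at 0 Gy) and 72 to 109 calls in the interval (72 without replicate 1 of KOSC-2 at 8 Gy, which made the most). Gained KOSC-2 regions ranged from 2 to 19 (7, 13 and 19 without 8 Gy replicate 1, 0 Gy replicate 2 and 8 Gy replicate 2), and lost ones from 1 to 11 (5, 6 and 11 without 8 Gy replicate 1, 0 Gy replicate 1 and 0 Gy replicate 2). Gained HSC-3 regions ranged from 0 to 4 (2 and 4 without 8 Gy replicate 1 and 0 Gy replicate 1) and lost ones from 1 to 5 (4 and 5 without 8 Gy replicate 2 and 0 Gy replicate 2). With 1 library left at a dose, or fewer libraries in a line, the rules are easier to meet. The gained, lost and KOSC-2-only counts thus move partly by construction, and genome-wide shares under the changed rules are not given here.

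The dose difference in share stayed below 0 throughout, from -0.00553 to -0.000949 percentage points over the libraries left out. That in covered bases ranged from -0.195 to 4.03 kb and turned below 0 without replicate 1 of KOSC-2 at 8 Gy (-0.195) or replicate 2 of HSC-3 at 0 Gy (-0.0513). That in fold percentile ranged from -2.86 to 2.69 over the libraries left out, below 0 without replicate 2 of KOSC-2 at 0 Gy or of HSC-3 at 0 or 8 Gy. It was -0.0379 with lists of equal length, -3.19 at 50% coverage and -2.24 without the 3 libraries. The cause was not tested. The replicate block (16 assignments) left the differences at -0.00324, 1.92 and 0.203, with exact permutation p of 0.25, 0.75 and 1. The labels do not say what a number shares, and the deviations of same-numbered libraries correlated at 0.18 in KOSC-2 and -0.12 in HSC-3.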
